A study of Mus musculus with 24 samples.

Results

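A set of 10 genes of bile acid transport and of FGF15 signalling were followed over liver and small intestine of Casp1-null and wild-type mice. They were chosen by name, as Slc10a2, Fabp6, Slc51a, Slc51b, Abcc3, Nr1h4, Nr0b2, Fgf15, Fgfr4 and Klb, and are 10 of the 18820 genes with a probe set that carries 1 gene symbol. All 10 were matched, each by 1 probe set. Caspase-1 is the enzyme by which inflammasomes mature interleukins, and the series asks how its loss affects triglyceride-rich lipoprotein secretion. Gene expression was measured on 24 single-colour Affymetrix arrays, 3 for each of 8 groups.

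The groups were Casp1-null and wild-type liver, Casp1-null and wild-type ileum, Casp1-null and wild-type jejunum, and Casp1-null and wild-type duodenum. All mice were males aged 14 to 16 weeks on chow. The Casp1-null line had been backcrossed to C57BL/6, and the wild-type mice were C57BL/6J. Livers were taken after a fast of 16 h. Intestines were taken from mice fasted overnight that had then received 200 µL of olive oil into the stomach 2 h before, and the epithelium of each segment was scraped off. The design holds no line with that backcross and an intact Casp1, so loss of Casp1 and other differences between the lines cannot be told apart. The labels do not say whether samples of the same number came from 1 mouse.

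Bile acids are made in the liver, secreted into the gut and taken back mainly in the ileum, in a loop called the enterohepatic circulation. The apical transporter Slc10a2 brings them into the ileal enterocyte, Fabp6 binds them in the cytosol, and the dimer of Slc51a and Slc51b exports them towards portal blood, a step to which the ATP-driven pump Abcc3 can also contribute. In the enterocyte bile acids activate the nuclear receptor Nr1h4 (FXR), which induces Nr0b2 (SHP, a corepressor) and the hormone Fgf15. Fgf15 reaches hepatocytes, where the receptor Fgfr4 with its coreceptor Klb (beta-Klotho) lowers bile acid synthesis.

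Promoter windows are shown for Fabp6 and Slc51b, members with their highest levels in ileum, because both hold an inverted repeat related to the element that Nr1h4 is known to bind. RefSeq windows of 250 bases before to 50 bases after the gene start were found for 8 of the 10 members on GRCm38.p6, all but Fgf15 and Abcc3. The window of Fabp6 is chr11:43601513-43601812 and that of Slc51b chr9:65422724-65423023, both on the minus strand. Capitals mark matches of the inverted repeat GGTNANTNACC.
Fabp6: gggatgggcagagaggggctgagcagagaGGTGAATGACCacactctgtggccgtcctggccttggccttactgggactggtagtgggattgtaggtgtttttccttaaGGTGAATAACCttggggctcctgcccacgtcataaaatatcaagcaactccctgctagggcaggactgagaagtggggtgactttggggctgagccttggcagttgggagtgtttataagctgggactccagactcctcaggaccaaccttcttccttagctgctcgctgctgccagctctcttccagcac
Slc51b: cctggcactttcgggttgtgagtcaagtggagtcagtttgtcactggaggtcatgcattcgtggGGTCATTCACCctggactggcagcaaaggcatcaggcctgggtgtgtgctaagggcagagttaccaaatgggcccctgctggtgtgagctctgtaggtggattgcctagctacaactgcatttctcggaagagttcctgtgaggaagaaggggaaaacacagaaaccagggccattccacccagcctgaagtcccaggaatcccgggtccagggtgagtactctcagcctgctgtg

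Both strands of each window were searched for 3 motifs. The nuclear receptor hexamer AGGTCA was in 16.3% of the 32851 windows of the genome's genes, and among the members in those of Nr1h4, Slc51a and Slc51b. Its inverted repeat with 1 base between, AGGTCANTGACCT, the type of element that Nr1h4 with its partner Rxra is known to bind, was in 0.00913% of windows and in no member's. The looser GGTNANTNACC, which every AGGTCANTGACCT contains, was in 0.262% of windows. Fabp6 held it at positions -221 and -141 relative to the start, as GGTGAATGACC and GGTGAATAACC, and Slc51b held it at -186, as GGTCATTCACC. The looser motif was chosen after these windows had been read, and a match of letters is a description and not a binding site.

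On the arrays, hepatocyte markers averaged 12.53 to 12.78 (log2 level, mean of 8 genes) on the 6 liver arrays and enterocyte markers 12.27 to 12.76 on the 18 intestinal arrays. Casp1 itself was lower in the Casp1-null gut, with log2 differences of -3.07 in jejunum, -2.22 in ileum and -2.07 in duodenum (limma, adjusted p = 3.06e-06, 9.28e-05 and 0.000166). In liver its means were 4.10 in Casp1-null and 4.44 in wild type, both under the array medians, and it was not called (adjusted p = 0.503). The threshold for a call was an adjusted p of 0.05. Array medians were 5.187 to 5.224 in liver and 4.874 to 5.005 in intestine, and a group averaging less than the lowest of these in its tissue is described as not shown above background. A fold against such a group is given as a lower bound, with its arrays raised to their own medians. Some arrays stood apart. Smooth muscle and stroma markers averaged 8.61 on Casp1-null ileum array 3 and 8.98 on wild-type ileum array 2, with 0 of 11 markers under the array median on either, against 4.31 to 4.57 on the other 4 ileal arrays. Exocrine pancreas markers were high on wild-type duodenum array 1.

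**Figure D1:**
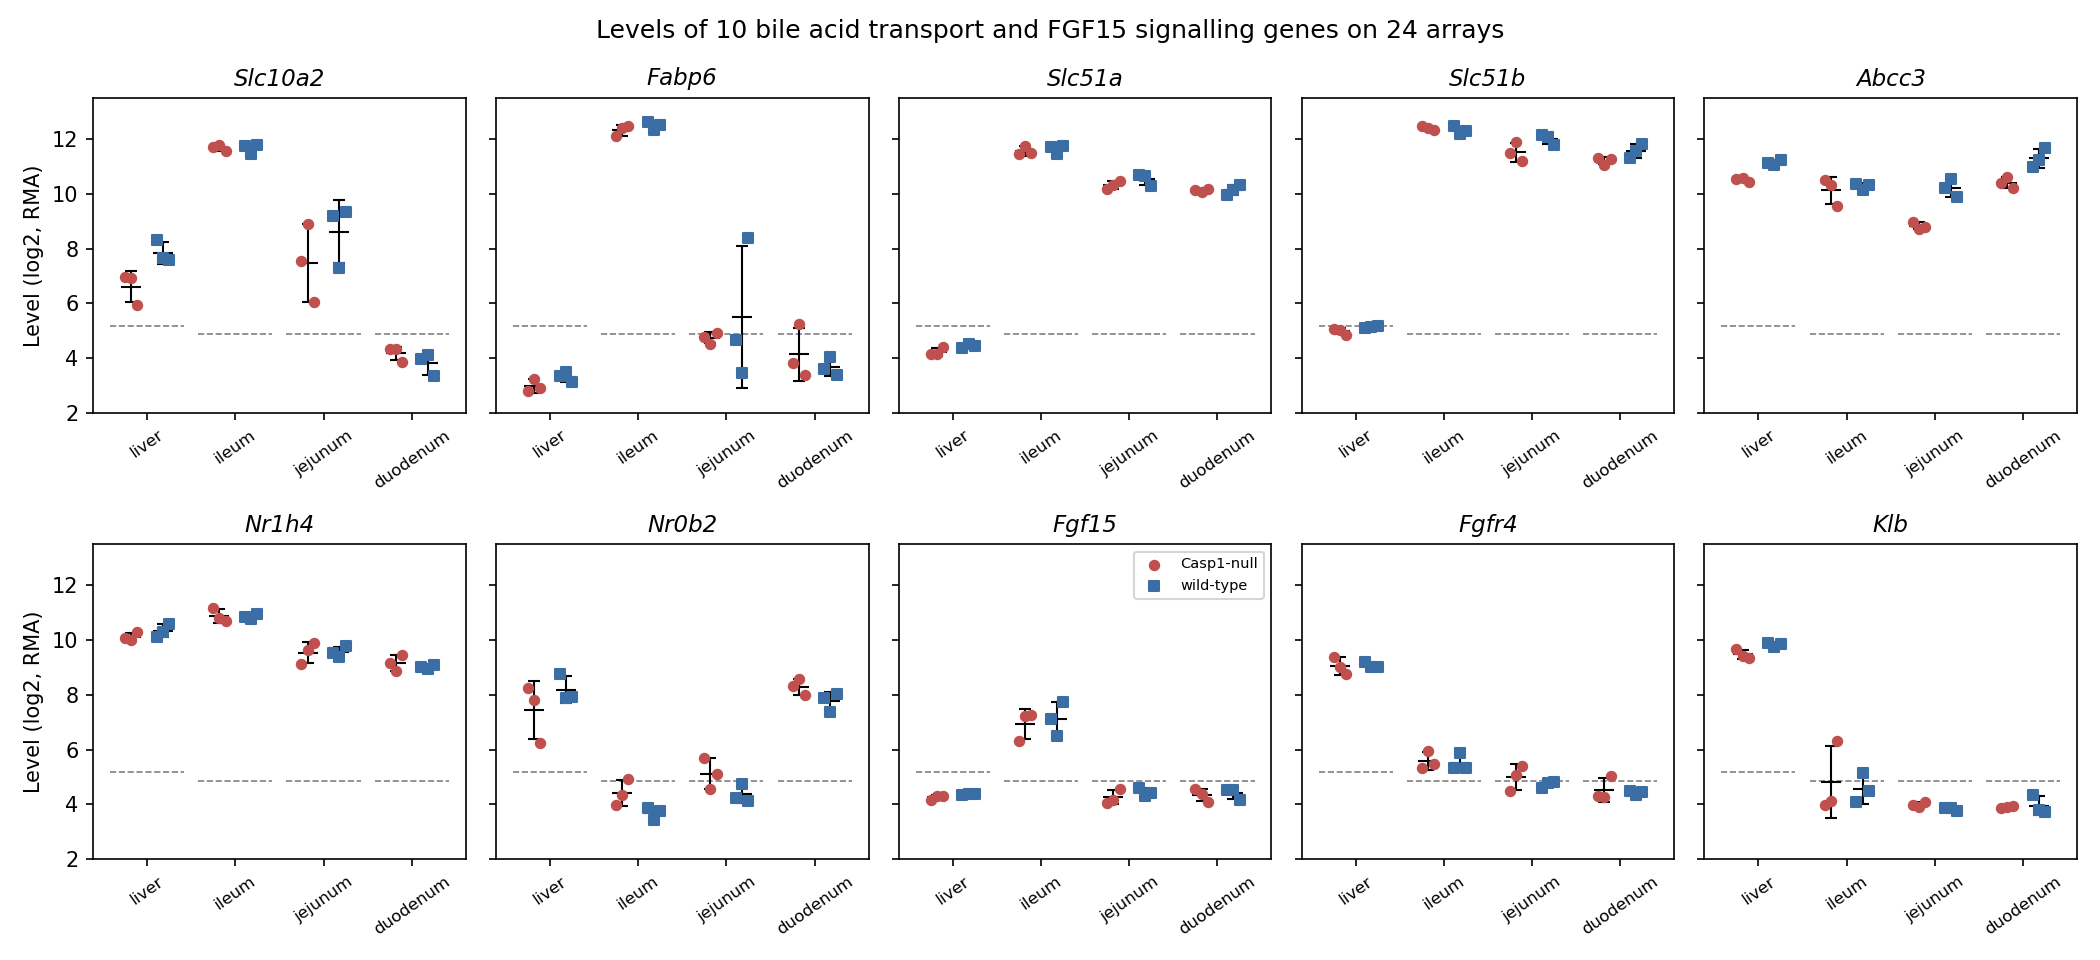
Level of each gene (log2, RMA) on every array by tissue, with Casp1-null as red circles and wild type as blue squares. Bars are the mean and SD of 3 arrays, and dashed lines the lowest array median of the tissue (5.187 in liver, 4.874 in intestine). Fgf15 lies above its dashed line only in ileum, and Klb on all 6 liver arrays but on 2 of the 18 intestinal arrays.

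Slc10a2 (Gene ID 20494, chromosome 8), the apical uptake transporter, was graded along the gut. It was 11.70, 11.77 and 11.57 on the Casp1-null ileal arrays and 11.76, 11.46 and 11.77 on the wild-type ones (log2). In jejunum the values were 7.53, 8.89 and 6.04 in Casp1-null and 9.20, 7.29 and 9.35 in wild type. In duodenum all 6 arrays lay between 3.33 and 4.32, under the array medians. The ileal arrays lay together, the jejunal arrays spread over more than 3 log2 units, and no jejunal array overlapped ileum or duodenum. In wild-type mice the ileum exceeded the jejunum 8.28-fold (log2 difference 3.05, SE 0.58, adjusted p = 0.00264), and the jejunum exceeded the duodenum at least 12.9-fold (adjusted p = 0.000113). In Casp1-null mice the corresponding differences were 18.3-fold (log2 4.19, adjusted p = 0.000285) and at least 5.86-fold (adjusted p = 0.00313). These sizes rest in part on single jejunal arrays. In Casp1-null, ileum minus jejunum was 4.90 without jejunum array 2 and 3.47 without array 3, and in wild type it was 2.39 without jejunum array 2 (log2). For jejunum over duodenum the lower bounds in Casp1-null were 3.60-fold without jejunum array 2 and 9.68-fold without array 3. In wild type the bound was 20.4-fold without jejunum array 2. All of these differences were still called.

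Fabp6 (Gene ID 16204, chromosome 11), the cytosolic bile acid binding protein of ileal enterocytes, was high in ileum and low nearly everywhere else. It was 12.10, 12.39 and 12.47 on the Casp1-null ileal arrays and 12.61, 12.35 and 12.53 on the wild-type ones. In jejunum it was 4.78, 4.52 and 4.93 in Casp1-null and 4.66, 3.45 and 8.40 in wild type. Wild-type jejunum array 3 thus stood well above the other 5 jejunal arrays. Distal intestine markers averaged 10.06 on it and 10.28 and 9.94 on wild-type jejunum arrays 1 and 2, but only 2 of these 8 markers were called between wild-type ileum and jejunum. The part of ileal tissue in this value was not tested. Duodenal values lay between 3.37 and 5.24 and liver values between 2.79 and 3.50. The fitted difference between wild-type ileum and jejunum was 127-fold (log2 6.99, SE 0.84, adjusted p = 6.72e-05). Wild-type jejunum arrays 1 and 2 were under their array medians (4.93 and 4.962), and the group mean of 5.51 was above background only through array 3. The 127-fold is therefore neither a lower bound nor a firm size. The Casp1-null ileum exceeded its jejunum at least 169-fold (adjusted p = 4.42e-05). Without wild-type jejunum array 3 the wild-type difference was 8.44 against arrays under their medians, and without array 2 it was 5.96, both called.

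Slc51a (Gene ID 106407, chromosome 16) and Slc51b (Gene ID 330962, chromosome 9), the subunits of the basolateral exporter, were high in the whole small intestine and not shown above background in liver. Slc51a was 11.46, 11.76 and 11.48 in Casp1-null ileum and 11.70, 11.46 and 11.73 in wild-type ileum, and the 12 arrays of jejunum and duodenum lay between 9.94 and 10.69. Its ileal arrays did not overlap those of the other segments. The ileum exceeded the jejunum by 1.23 in Casp1-null and by 1.09 in wild type (log2, SE 0.13 each, adjusted p = 3.46e-05 and 7.95e-05). Slc51b was 12.46, 12.40 and 12.33 in Casp1-null ileum and 12.46, 12.19 and 12.29 in wild-type ileum, with 11.07 to 12.14 in the other segments. For Slc51b the ileum exceeded the jejunum by 0.88 in Casp1-null mice (SE 0.16, adjusted p = 0.0032). In wild type that difference was 0.30 and was not called (95% interval -0.05 to 0.65, adjusted p = 0.284). On liver arrays Slc51a was 4.14 to 4.51 and Slc51b 4.85 to 5.18. Over the 24 arrays both subunits varied together (Pearson's r = 0.994), a description of arrays that share 4 tissues.

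Abcc3 (Gene ID 76408, chromosome 11), the basolateral pump for organic anions, did not share the ileal maximum. Liver held 10.53, 10.59 and 10.44 in Casp1-null and 11.13, 11.05 and 11.24 in wild type. In ileum it was 10.51, 10.32 and 9.56 in Casp1-null and 10.35, 10.14 and 10.32 in wild type, below the liver arrays of wild type. In jejunum it was 8.98, 8.73 and 8.80 in Casp1-null and 10.21, 10.56 and 9.88 in wild type. In duodenum it was 10.40, 10.63 and 10.21 in Casp1-null and 10.98, 11.24 and 11.68 in wild type. Casp1-null jejunum was the lowest of the 8 groups and overlapped none of them. In both genotypes the jejunum was lower than the duodenum, by -1.58 in Casp1-null and -1.08 in wild type (log2, adjusted p = 0.000841 and 0.0119). The wild-type difference was not called without duodenum array 3 (-0.89, adjusted p = 0.0541), without jejunum array 3 (-0.92, adjusted p = 0.0649), or in a fit on the 6 arrays compared (adjusted p = 0.0512). The ileum exceeded the jejunum by 1.29 in Casp1-null mice (SE 0.23, adjusted p = 0.00256) and by 0.06 in wild type (95% interval -0.44 to 0.56, adjusted p = 0.915).

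Nr1h4 (Gene ID 20186, chromosome 10), the bile acid receptor, was expressed in all 4 tissues. Its means were 10.12 ± 0.15 in Casp1-null liver and 10.34 ± 0.24 in wild-type liver (log2, SD, n = 3 each), and 10.89 ± 0.25 and 10.86 ± 0.089 in Casp1-null and wild-type ileum. They were 9.54 ± 0.39 and 9.56 ± 0.19 in Casp1-null and wild-type jejunum, and 9.17 ± 0.29 and 9.02 ± 0.074 in Casp1-null and wild-type duodenum. Ileal arrays lay above all others, while those of jejunum and Casp1-null duodenum overlapped. The ileum exceeded the jejunum by 1.35 in Casp1-null and 1.29 in wild type (SE 0.19 each, adjusted p = 0.000315 and 0.00034).

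Nr0b2 (Gene ID 23957, chromosome 4), the corepressor that Nr1h4 induces, ran against the ileal pattern. In ileum, where Nr1h4 was highest, it was 3.99, 4.35 and 4.92 in Casp1-null and 3.86, 3.45 and 3.77 in wild type, under the array medians. In jejunum it was 5.69, 4.57 and 5.12 in Casp1-null and 4.25, 4.75 and 4.13 in wild type. In duodenum it was 8.31, 8.57 and 8.00 in Casp1-null and 7.89, 7.36 and 8.03 in wild type, so every duodenal array lay above all those of jejunum and ileum. The jejunum was lower than the duodenum, 8.98-fold in Casp1-null (log2 -3.17, SE 0.29, adjusted p = 1.13e-05) and at least 7.13-fold in wild type (adjusted p = 4.79e-06). Liver arrays held 8.26, 7.81 and 6.25 in Casp1-null and 8.76, 7.88 and 7.92 in wild type, overlapping the duodenal range.

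Fgf15 (Gene ID 14170, chromosome 7), the ileal hormone, was seen above background in ileum alone. It was 6.31, 7.22 and 7.27 in Casp1-null ileum and 7.13, 6.48 and 7.74 in wild-type ileum. The 18 arrays of the other tissues all lay between 4.07 and 4.59, under their array medians, and overlapped no ileal array. The ileum exceeded the jejunum at least 4.03-fold in Casp1-null and at least 4.57-fold in wild type (adjusted p = 3.15e-05 and 2.26e-05).

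**Figure D2:**
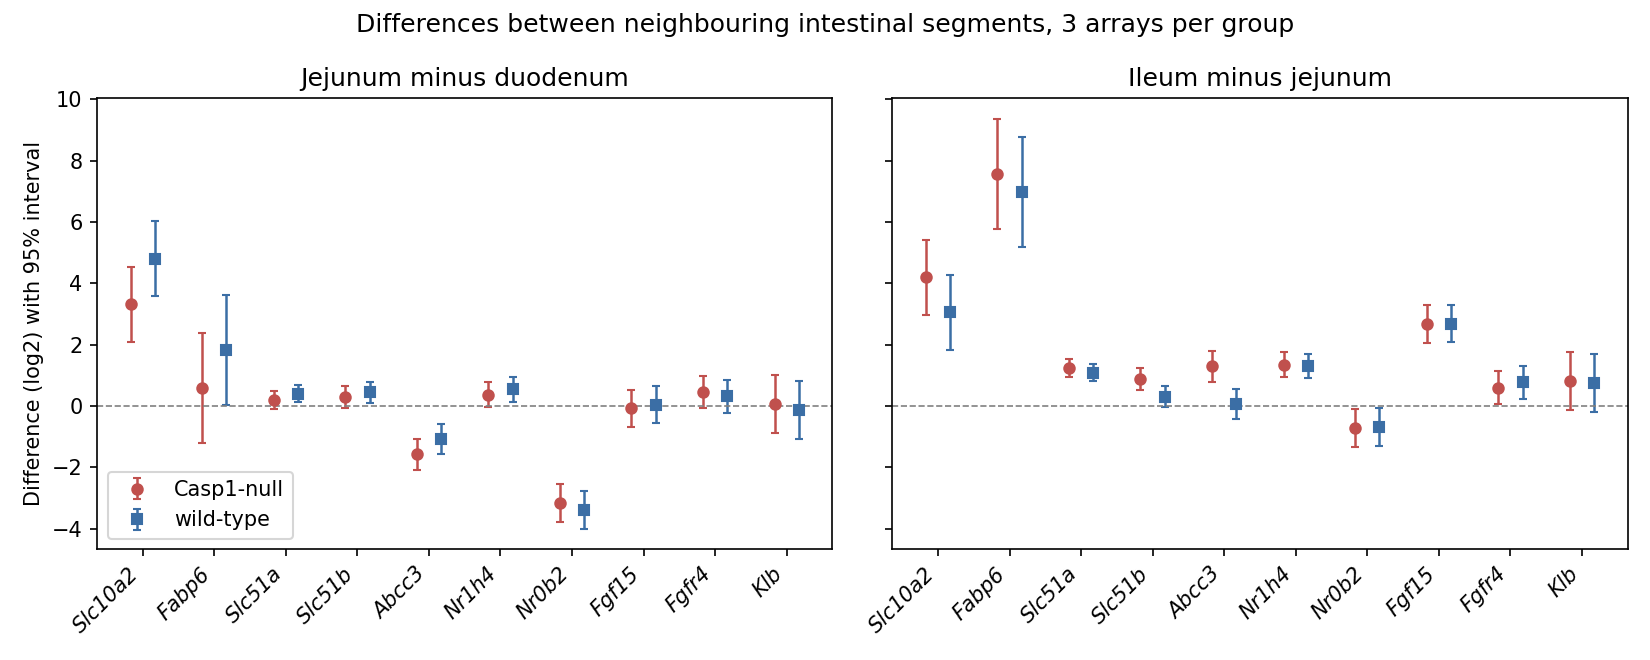
Log2 difference between neighbouring segments with its 95% interval, jejunum minus duodenum on the left and ileum minus jejunum on the right, Casp1-null as red circles and wild type as blue squares, 3 arrays per group. Fabp6 has the highest points in ileum minus jejunum (7.58 and 6.99), and Nr0b2 the lowest in jejunum minus duodenum (-3.17 and -3.38). Differences against groups under the array median are fitted values.

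Counted over the 10 genes, 7 were higher in ileum than in jejunum in Casp1-null mice and 0 lower, where 5.26% of the 35556 probe sets were called higher. In wild type 5 were higher and 0 lower, where 6.31% of probe sets were called higher. The median log2 difference of the 10 was 1.26 in Casp1-null and 0.93 in wild type, beside -0.02 and -0.03 for all probe sets. Between jejunum and duodenum, 1 gene was higher and 2 were lower in each genotype, where 3.97% of probe sets were called in Casp1-null and 5.96% in wild type. Fgfr4 in wild type just missed the threshold for ileum minus jejunum (adjusted p = 0.0584), with a lower bound of 0.59 (log2) against jejunal levels under the array medians. Without the ileal arrays high in stroma markers its fitted difference went from 0.77 to 0.58 (adjusted p = 0.262).

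Other genes of the pathway were called in both directions along the gut. Of 19 measured regulators of bile acid genes, 1 was higher and 4 lower in ileum than in jejunum of Casp1-null mice, where 5.26% of all probe sets were called higher and 4.44% lower. In wild type 3 were higher and 4 lower, where 6.31% of probe sets were called higher and 5.48% lower. Gata4, a transcription factor of the proximal gut, was at 5.95, 5.90 and 6.66 in Casp1-null ileum and 10.04, 9.73 and 10.18 in Casp1-null jejunum (log2 -3.82, adjusted p = 6.23e-07). In wild type it was 6.15, 5.02 and 5.97 in ileum and 10.21, 9.81 and 9.67 in jejunum (-4.19, adjusted p = 1.18e-07), so the segments did not overlap in either genotype. Nr5a2, a receptor that Nr0b2 represses, was higher in ileum, by 1.12 in Casp1-null and 1.38 in wild type (adjusted p = 0.00385 and 0.000656). Of 12 genes of hepatic bile acid and bile lipid transport, 0 were higher and 3 lower in ileum in each genotype, among them the apical conjugate pump Abcc2 (-1.14 in Casp1-null, -1.89 in wild type). Of 16 genes of bile acid synthesis, 1 was higher in each genotype, while 4 were lower in Casp1-null and 5 in wild type. The median differences of the 3 lists lay between -0.16 and -0.01. Between jejunum and duodenum, Ephx1, an epoxide hydrolase, was lower in jejunum by -4.12 in Casp1-null and -4.46 in wild type (adjusted p = 0.000104 and 4.05e-05), and Vdr, the vitamin D receptor that also senses bile acids, by -0.63 and -0.92 (adjusted p = 0.000542 and 1.41e-05).

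The hepatic receptor of Fgf15 was set against the ileum in wild-type mice. Fgfr4 (Gene ID 14186, chromosome 13) was 9.18, 9.03 and 9.01 in wild-type liver and 5.33, 5.89 and 5.32 in wild-type ileum (log2), an 11.8-fold difference (log2 3.56, SE 0.24, adjusted p = 1.11e-10). Klb (Gene ID 83379, chromosome 5) was 9.91, 9.76 and 9.87 in wild-type liver and 4.08, 5.15 and 4.48 in wild-type ileum, at least 28.6-fold higher in liver (adjusted p = 6.84e-10). Neither gene's liver arrays overlapped the ileal ones, and their levels varied together over the 24 arrays (Pearson's r = 0.972, as a description). In Casp1-null mice Fgfr4 was 9.39, 9.01 and 8.75 in liver and 5.32, 5.97 and 5.47 in ileum. On the 12 arrays of jejunum and duodenum Fgfr4 lay between 4.27 and 5.42.

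All 10 genes were called between wild-type liver and wild-type ileum, where 56.3% of all probe sets were. Liver was higher for Klb, Fgfr4, Nr0b2 (at least 9.39-fold) and Abcc3 (log2 0.87, adjusted p = 0.00158). It was lower for Fabp6 (at least 156-fold), Slc51b (at least 138-fold), Slc51a (at least 85.9-fold), Slc10a2 (14.2-fold), Fgf15 (at least 3.76-fold) and Nr1h4 (log2 -0.51, adjusted p = 0.0214). The Nr1h4 call was lost without wild-type liver array 1 (-0.40, adjusted p = 0.102), liver array 2 (-0.50, adjusted p = 0.053) or ileum array 3 (-0.47, adjusted p = 0.0677). Centring each array on its median moved these differences by -0.25, to -0.77 for Nr1h4 and 0.62 for Abcc3, both called. All 16 synthesis genes were higher in liver, as were 9 transport genes, against 2 lower, and 13 regulators, against 2 lower. Tissue and feeding state cannot be told apart here, since livers came from fasted mice and intestines from mice given oil.

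Klb in the intestine moved with stroma markers on 2 arrays. It was 3.96, 4.14 and 6.33 on Casp1-null ileum arrays 1 to 3 and 4.08, 5.15 and 4.48 on the wild-type ones, with 3.73 to 4.34 in jejunum and duodenum. The 2 values above the array medians were those of Casp1-null array 3 and wild-type array 2, the arrays with stroma means of 8.61 and 8.98. Whether stromal cells gave this Klb signal was not tested. Klb averaged under the array medians in ileum of both genotypes, so no size is given for its genotype difference, which was called neither without these arrays nor with them (adjusted p = 0.973 and 0.999). Leaving these arrays out changed no count of called members in the 6 comparisons that use ileum, but some sizes moved. The ileal genotype difference went from -0.19 to -0.67 for Fgf15 and from -0.15 to 0.07 for Abcc3 (log2), neither called.

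**Figure D3:**
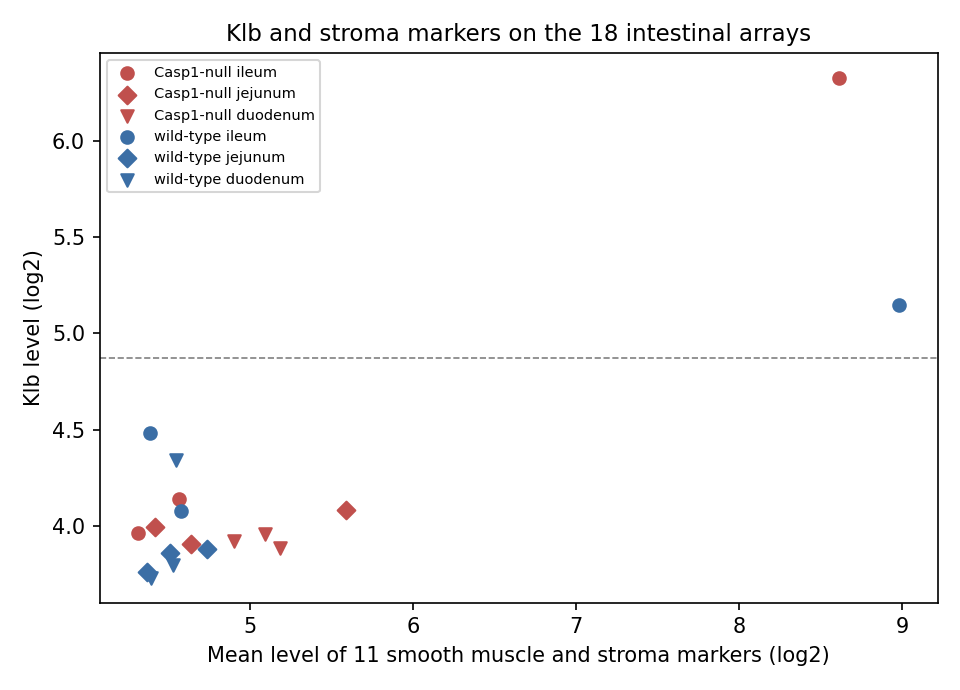
Klb level (log2) against the mean of 11 smooth muscle and stroma markers (log2) on the 18 intestinal arrays, red for Casp1-null and blue for wild type, with a symbol for each segment. The dashed line is the lowest intestinal array median, 4.874. Only Casp1-null ileum array 3 (6.33) and wild-type ileum array 2 (5.15) lie above it, and both have stroma means above 8.

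Loss of Casp1 went with a lower level of 1 of the 10 genes in jejunum, where 1.63% of probe sets were called. Abcc3 fell 2.60-fold (log2 -1.38, SE 0.23, 95% interval -1.88 to -0.88, adjusted p = 0.00579) and the genotypes did not overlap. The difference lay between -1.55 and -1.21 over 15 alternatives, and each of them called it (adjusted p of 0.00273 to 0.0363). Among them the mean over probe sets only repeats the main fit, since each member has 1 probe set. In bulk samples fewer cells of a type and less RNA per cell cannot be told apart. Enterocyte markers averaged 12.59 to 12.75 in Casp1-null jejunum and 12.74 to 12.76 in wild-type jejunum, and stroma markers 4.41 to 5.59 and 4.37 to 4.73. The part of either in the Abcc3 result was not tested. Groups did not overlap for 2 of the 10 genes in jejunum, Abcc3 and Klb, beside 17.3% of all probe sets, and 3 had an unadjusted p under 0.05. Klb was under the array medians in jejunum of both genotypes. Slc51b was -0.50 (95% interval -0.85 to -0.15, adjusted p = 0.196), and it was called without Casp1-null jejunum array 2 (-0.68, adjusted p = 0.0485). For Nr0b2 the lower bound was 0.20, since its wild-type jejunal mean was under the array medians (adjusted p = 0.303). Slc10a2 was -1.12 with a wide interval of -2.35 to 0.10.

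In the other 3 tissues none of the 10 genes was called. In ileum 0.726% of probe sets were called, and 1 of the 10 had an unadjusted p under 0.05. For the uptake and export genes the ileal differences were 0.02 for Slc10a2 (95% interval -1.21 to 1.25), -0.17 for Fabp6 (-1.97 to 1.62), -0.07 for Slc51a (-0.36 to 0.21) and 0.08 for Slc51b (-0.27 to 0.43). For Nr1h4 the interval was -0.36 to 0.43, and for Fgf15 it was -0.80 to 0.42 around -0.19. Without both stroma-rich ileal arrays the Fgf15 difference was -0.67 (limma, adjusted p = 0.658). The spread behind these intervals was pooled over all 18 intestinal arrays. Fgf15 had SDs of 0.54 in Casp1-null and 0.63 in wild-type ileum, against 0.15 to 0.26 in jejunum and duodenum. Its pooled interval therefore understates the spread of its ileal arrays. For Fabp6 and Slc10a2, with ileal SDs of 0.10 to 0.19, the pooled interval is wider than the ileal spread. Nr0b2 was the 1 gene of the 10 without overlap in ileum, beside 9.28% of all probe sets, at levels under the array median in both genotypes (adjusted p = 0.607). In the gut Nr0b2 was high in duodenum but not in jejunum. Markers of the proximal intestine averaged 6.73 to 7.82 in Casp1-null ileum and 6.01 to 6.55 in wild-type ileum. They are not markers of duodenum alone, as Fabp1 averaged 12.73 in wild-type jejunum. Of these 7 markers 1 was called, Fabp1 (1.76, adjusted p = 0.000381), and 6 had an unadjusted p under 0.05. Their part in the Nr0b2 values was not tested.

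In duodenum 0 of the 10 genes were called, where 1.03% of probe sets were, and 2 had an unadjusted p under 0.05. Abcc3 and Slc51b, 2 of the 10, had groups without overlap, beside 20.2% of probe sets. Abcc3 was -0.89 in duodenum (95% interval -1.39 to -0.39, adjusted p = 0.101), and -1.05 without wild-type array 1, the array high in pancreas markers (adjusted p = 0.0873). It shrank to -0.70 without wild-type array 3 (adjusted p = 0.286) and to -0.78 without Casp1-null array 3 (adjusted p = 0.342). None of 15 alternatives called it (adjusted p of 0.0654 to 0.342). Stroma markers averaged 4.90 to 5.18 in Casp1-null duodenum and 4.39 to 4.54 in wild-type duodenum, and their part was not tested. Slc51b was -0.35 (-0.70 to -0.0027, adjusted p = 0.393) and Nr0b2 was 0.53 (-0.09 to 1.15, adjusted p = 0.481).

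In liver 0 of the 10 genes were called, where 0.726% of probe sets were, and 3 had an unadjusted p under 0.05. Abcc3 just missed the threshold (-0.62, 95% interval -0.85 to -0.39, adjusted p = 0.0514), and all 3 Casp1-null arrays lay under the wild-type ones. It was called in 4 of 14 alternatives (adjusted p of 0.028 to 0.191 over all 14). Slc10a2, at 6.95, 6.92 and 5.95 in Casp1-null liver and 8.30, 7.64 and 7.57 in wild-type liver, differed by -1.23 (-1.995 to -0.475, adjusted p = 0.196). Klb, at 9.67, 9.43 and 9.33 in Casp1-null liver and 9.91, 9.76 and 9.87 in wild-type liver, differed by -0.37 (-0.64 to -0.09, adjusted p = 0.276), Fgfr4 by -0.02 (-0.42 to 0.38) and Nr0b2 by -0.75 (-1.997 to 0.499). Without overlap between genotypes were 5 of the 10 in liver, Slc10a2, Slc51b, Fgf15, Klb and Abcc3, beside 17.6% of probe sets. Slc51b and Fgf15 were under the array medians in both genotypes.

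Markers of gut epithelium were also read on the same liver arrays. The 8 enterocyte markers averaged 5.73 to 5.88 in Casp1-null liver and 6.36 to 6.67 in wild-type liver, and 6 of them had an unadjusted p under 0.05 with 0 called. The share of all probe sets with such a p is not given here, so these counts have no background beside them. The 6 goblet cell markers averaged 5.19 to 5.34 in Casp1-null liver and 5.56 to 6.13 in wild-type liver, all 6 with an unadjusted p under 0.05. Of these only Zg16 was called (-1.72, adjusted p = 0.0387), and Tff3 ran the other way, with means of 7.86 in Casp1-null liver and 6.70 in wild-type liver (1.16, adjusted p = 0.0931). Of the 8 distal intestine markers 1 was called, lower in Casp1-null liver. Among these 8, 3 had an unadjusted p under 0.05 and 4 had no overlap between genotypes. Of the 7 proximal intestine markers 0 were called and 1 had an unadjusted p under 0.05, and of the 6 Paneth cell markers 0 and 0. Fabp6, Slc51a and Slc51b, high in ileal epithelium, were under the array medians in liver of both genotypes. Slc10a2 is also known from bile duct cells, and 6 markers of these were listed after the values had been seen. They averaged 4.66 to 5.04 in Casp1-null liver and 4.86 to 5.05 in wild-type liver, under the array medians, so this average says little. Of the 6 markers 0 were called, and their median difference was 0.01. Only Epcam, also an enterocyte marker, had no overlap, at 5.08, 4.54 and 4.68 in Casp1-null and 5.55, 5.51 and 5.52 in wild type. The part of such cells in the Slc10a2 difference was not tested.

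**Figure D4:**
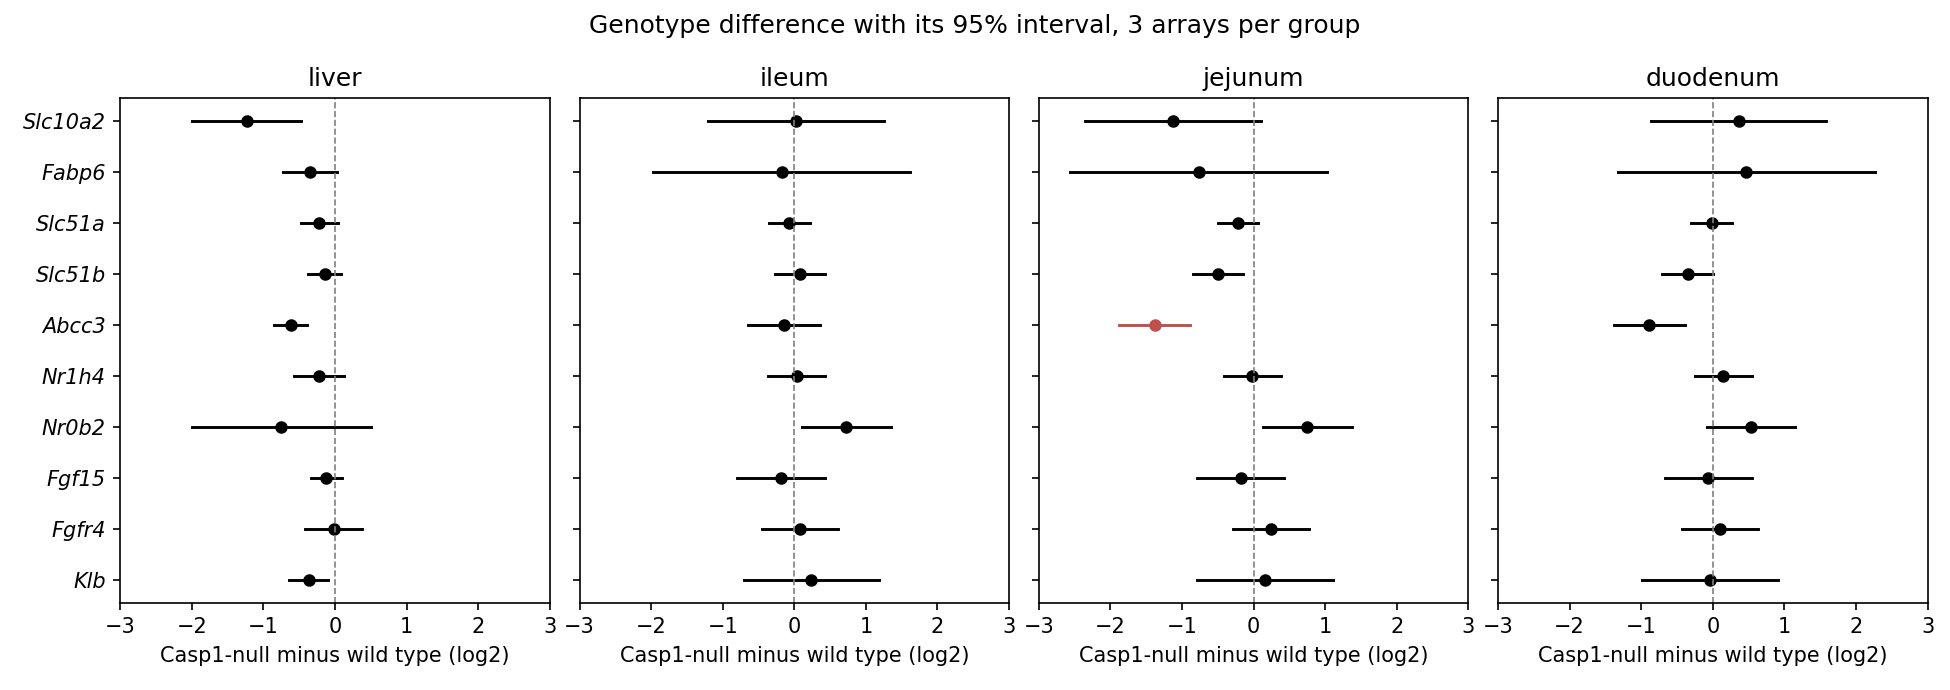
Casp1-null minus wild-type difference (log2) of each gene with its 95% interval, 1 panel per tissue, 3 arrays per group. The 1 called difference, Abcc3 in jejunum (-1.38), is red. The intervals of Abcc3 also lie below 0 in duodenum and liver, where it was not called, and the ileal interval holds 0. Differences of groups under the array median are fitted values.

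The genotype difference of each gene was also compared between tissues. Between ileum and the mean of jejunum and duodenum it differed for 0 of the 10 genes, where 0.0422% of probe sets were called, and 2 of the 10 had an unadjusted p under 0.05. For Abcc3 this term was 0.99 (95% interval 0.38 to 1.60, unadjusted p = 0.00363, adjusted p = 0.527). Between liver and ileum it differed for 0 of the 10, where 0.889% of probe sets were called. The lowest unadjusted p there was that of Nr0b2, 0.0178 (adjusted p = 0.42), and no size is given because its ileal means were under the array medians in both genotypes. The genotype effect of Abcc3 was therefore not shown to differ between tissues by these tests.

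Among the 47 other bile acid genes of the 3 lists, 1 was called by genotype in each tissue, higher in Casp1-null mice each time. That is 2.13% of them, beside 1.63% of all probe sets in jejunum, 1.03% in duodenum and 0.726% in both ileum and liver. In liver this was Cyp7b1, the oxysterol hydroxylase of the alternative synthesis pathway, at 12.24, 12.37 and 12.63 in Casp1-null and 11.17, 11.14 and 11.24 in wild type (log2 1.23, adjusted p = 0.0111). In ileum this was the acyl-CoA synthetase Slc27a2, counted as a synthesis gene (0.78, adjusted p = 0.0241), and in jejunum the receptor Fgfr3 (0.82, adjusted p = 0.0389). In duodenum this was Cyp2c70, also counted as a synthesis gene, at 5.98, 4.52 and 4.85 in Casp1-null and 3.83, 3.80 and 3.90 in wild type (adjusted p = 0.0201). Only Casp1-null array 1 was above its array median, and the lower bound was 1.14-fold. Each of the 4 calls was lost without single arrays: Cyp7b1 without any wild-type liver array or Casp1-null array 2 (adjusted p of 0.0551 to 0.074), and Cyp2c70 without any wild-type duodenal array (0.0641 to 0.0854). Slc27a2 was not called without any Casp1-null ileal array or wild-type array 1 (adjusted p of 0.0561 to 0.114), and Fgfr3 without any jejunal array but wild-type array 3 (0.0662 to 0.164). Cyp7a1, the rate-limiting enzyme of bile acid synthesis and the main target of Fgf15 signalling, was 11.04, 10.71 and 11.70 in Casp1-null liver and 10.35, 11.13 and 11.17 in wild-type liver, with overlap. Cyp8b1, which makes cholic acid, was 11.30, 11.69 and 11.37 in Casp1-null liver and 10.70, 10.75 and 10.78 in wild-type liver, without overlap but not called (0.71, adjusted p = 0.0746). In liver the median difference was 0.18 for the 16 synthesis genes and -0.28 for the 10 members, beside 0.0017 for all probe sets. The members' median rests in part on Fabp6, Slc51a, Slc51b and Fgf15, which were under the array medians in liver of both genotypes. None of the 12 transport genes was called by genotype in any tissue. An unadjusted p under 0.05 was found for 2 of them in duodenum, 1 in liver and 0 in jejunum and ileum.

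The genes whose levels most resembled those of 4 members over the 24 arrays were named by Pearson's r among 11996 candidate genes. These r describe arrays that share 4 tissues. For Fabp6 they were Epb41l4a (0.976), 1810065E05Rik (0.967), 2610528A11Rik (0.959), the glycosyltransferase Gcnt1 (0.959) and the protease Prss23 (0.957). For Fgf15 they were the ubiquitin ligase Rnf180 (0.974), the malic enzyme Me3 (0.956), Epb41l4a (0.949), Fabp6 itself (0.941) and Septin8 (0.940). Rnf180 averaged 8.13 in ileum of both genotypes and 5.07 to 5.25 in the other 6 groups. For Slc10a2 the likeness was looser, with Syde1 (0.946), Blmh (0.935), Nudt4 (0.930), Zbtb18 (0.926) and Prss23 (0.910). For Nr0b2 the glutathione transferases Gstk1 (0.956) and Gstm4 (0.943) were named with the HDL receptor Scarb1 (0.946), the transcription factor Foxq1 (0.944) and Gzf1 (0.939). Scarb1 averaged 10.17 and 10.27 in Casp1-null and wild-type duodenum, and 4.97 and 5.07 in Casp1-null and wild-type jejunum.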

How the data were processed

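The authors deposited log2 expression values per probe set, made with robust multi-array averaging (RMA) per the submitters' processing notes; its version, the set of arrays normalised together and a genome build are not given in the sources used here. The values were used as deposited. Of 35556 probe sets, 21218 carried 1 gene symbol, 1881 several and 12457 none. Two-sided tests came from limma 3.58.1 under R 4.3.3 (lmFit, eBayes without trend), with Benjamini-Hochberg adjustment over all 35556 probe sets. Genotype and segment differences in intestine came from 1 fit of 18 arrays (12 residual degrees of freedom), those in liver from 6 arrays (4), and those between liver and ileum from all 24 (16). The fit was tested on simulated data. Errors are SD of 3 arrays, or SE and 95% intervals of the fit. The series' design text gives an n of 3 per genotype but not which samples share a mouse. The p-values reflect the spread of these samples, and the number of arrays limits the precision. Counts of genes with an unadjusted p under 0.05 are given without the share over all probe sets, so they cannot be judged against it. No detection calls were used; the reading of low levels against array medians was chosen after the data had been seen.

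The members, lists, tests and rule for named genes were chosen with earlier results of these data known. The rule named all members, up to 4 genes of each of 3 bile acid lists per comparison by p, and the 5 genes most like Fabp6, Slc10a2, Fgf15 and Nr0b2 among those whose highest group mean passed the highest array median. List genes without a match, such as Acot8 and Malrd1, were not analysed here. Cell type markers were listed for hepatocytes, enterocytes, proximal and distal intestine, goblet and Paneth cells, stroma, endothelium, leukocytes and exocrine pancreas. Those of the distal intestine averaged 10.45 to 10.77 in ileum and those of the proximal intestine 10.75 to 11.28 in duodenum. Alternatives tried were array weights, quantile normalisation, centring on medians, a filter on low probe sets, a robust fit with a variance trend, replicate and random blocks, other sets of arrays for the spread, and leaving out each array. Leaving out both stroma-rich ileal arrays, and single arrays for the other bile acid genes and for lower bounds, was added after the data had been seen.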

Additional observations from a re-analysis of the deposited data

How the results depend on the processing

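Counts of called members moved by at most 1.5 times in 180 of the 185 alternatives to 11 comparisons. In liver the genotype count of 0 became 1, Abcc3, under the trend with robust fitting, the filter at the median, quantile normalisation again and array weights. In jejunum the genotype count of 1 ranged from 1 to 2 when each array was left out, with 2 without Casp1-null jejunum replicate 2, where Slc51b was added. For single members, 1820 alternatives kept the direction and side of the threshold or had no call on either side, 8 gained a call, 8 lost one and 0 reversed a called value. Beside the losses given above, in a fit on the arrays compared alone Slc51b in Casp1-null ileum minus jejunum (adjusted p = 0.0514) and Slc10a2 in Casp1-null jejunum minus duodenum (adjusted p = 0.0588) were not called; fewer samples gave the spread there. Fgfr4 in wild-type ileum minus jejunum gained a call under the filter (adjusted p = 0.0324), the replicate block (adjusted p = 0.0448) and random blocks (adjusted p = 0.0486). Without both stroma-rich ileal arrays it was further from a call (adjusted p = 0.262).

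Replicate numbers were not treated as pairs in the main fit. The labels do not say which samples share a mouse, and not every pair of segments with the same number deviated together. These correlations cannot settle whether such segments came from 1 mouse. Within a genotype the correlation of deviations had a median of 0.0555 for the same number, with 6 of 18 pairs over 0.1, and of -0.0368 for different numbers, with 6 of 36 over 0.1. For Casp1-null number 3 all 3 pairs of segments were over 0.1 (0.115 to 0.201). With the replicate block the count of called members rose from 5 to 6 for wild-type ileum minus jejunum and was unchanged in every other comparison. The estimated correlation of random blocks was 0.0458. Each member has 1 probe set, so the mean over probe sets repeats the main fit. It is counted among the alternatives but adds no support. A fit on the arrays compared alone is the same fit for the comparison of ileum with the proximal segments. Levels under the array medians limit the sizes given for Fgf15, Klb, Nr0b2 and Fabp6 outside their main tissues, for Slc10a2 in duodenum, Slc51a and Slc51b in liver and Fgfr4 in jejunum and duodenum.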
